A study of Rattus norvegicus with 12 samples.

Results

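T cell receptor signalling was followed through 9 genes in mesenteric lymph nodes of suckling rats: Zap70, Lck, Lat, Bcl11b, Fyn, Ptprc, Lcp2, Prkcq and Grb2. They were chosen by symbol, with earlier results of these data known. All 17 probe sets that the platform annotation gives to these symbols were kept, out of 31042 probe sets tested and 14217 named genes. A probe set is a group of short probes on the array that together report 1 transcript, and its value here is a quantile-normalized log2 intensity. Lck, Lat and Prkcq have 1 probe set each, Zap70, Fyn, Ptprc and Lcp2 have 2, and Bcl11b and Grb2 have 3. All 17 were above background on all 12 arrays, so no filter on low values removed a member.

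The animals were Wistar pups, and 1 Affymetrix Rat Genome 230 2.0 array was hybridized for each of 12 pups at weaning. Conjugated linoleic acid (CLA) is a family of fatty acids found in milk and ruminant fat, given here as a mix of isomers. In group A the mothers ate 1% CLA in the last 2 weeks of gestation and in suckling. The pups took it up from the milk, and the supplement lasted 5 weeks in all (2 before birth and 3 after). In group B the mothers ate 1% CLA in the last 2 weeks of gestation only, and the pups then had 3 weeks of CLA by daily oral gavage. In group C the mothers ate the standard diet and the pups had the same 3 weeks of gavage alone. Group D, the reference, had a standard-diet mother and no CLA. Groups B and C were therefore the ones in which CLA was given by gavage, and the sources used here describe no gavage of a vehicle in groups A and D. Each group holds 3 pups, which the study's methods say were drawn at random from 10, and the sources used here do not say which litters they came from. The p-values given later measure the spread between these animals. The whole node was extracted, so fewer cells of a type and less RNA per cell cannot be told apart.

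In the T cell, binding of antigen by the receptor and its CD3 chains lets Lck and Fyn phosphorylate the chains, to which Zap70 binds. Ptprc (CD45), a phosphatase of the cell surface, keeps Lck ready to act. Active Zap70 phosphorylates Lat and Lcp2 (SLP-76), a pair of scaffolds on which Grb2 and other adaptors assemble, and from there the signal branches into calcium, Ras and NF-kB, the last through the kinase Prkcq (PKC theta). Bcl11b is a transcription factor needed for T cell identity. Mesenteric lymph nodes drain the gut, and naive T cells meet gut antigen there.

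The median deposited intensity of an array was highest in group D (34.3 to 38.5), lower in group A (27.6 to 32.9) and lowest in the gavage groups (19.3 to 30.9), and quantile normalization gave all arrays 1 distribution. Before that step the genes as a whole stood at a median log2 difference from the reference of -0.02 in A, -0.65 in B and -0.80 in C, and A stood 0.73 above the gavage groups. After it these medians were 0.15, -0.11, -0.12 and 0.32, and each difference given later is to be read beside them. Group D replicate 3 stood apart from its group. Its mean correlation across probe sets was 0.931 with group B and 0.930 with group C, but 0.896 with replicates 1 and 2 of its own group, and its smooth muscle markers summed to 957 against 6810 and 6927 in replicates 1 and 2, as linear intensities. Values without this array are given where, against group D, it moved the call of a member or a count of passing genes given here for a list. CD3 transcripts, which define the T cell, were above background on every array.

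The stretches before the start sites of 4 members are shown to set a pair of genes that were higher in group A (Zap70 and Lat) beside the pair that was lower there (Ptprc and Prkcq). The sequences are those of RefSeq on rat assembly GRCr8, the 250 bases before each gene's start, read 5′ to 3′ on the gene's own strand. Capitals mark 3 motifs searched on both strands: the ETS core GGAAG, the RUNX core TGTGGT and the E-box CAGCTG. Of 33469 such stretches, 63.3% hold the ETS core, 14.5% the RUNX core and 12% this E-box. The GC box GGGCGG, held by 30.5%, was searched as well and is left in lower case.
Zap70, chr9:46485355-46485604, + strand: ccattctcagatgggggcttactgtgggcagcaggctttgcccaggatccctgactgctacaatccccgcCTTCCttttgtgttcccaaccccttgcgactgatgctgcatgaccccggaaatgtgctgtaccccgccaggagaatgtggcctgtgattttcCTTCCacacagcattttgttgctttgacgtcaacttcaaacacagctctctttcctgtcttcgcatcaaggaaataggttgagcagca
Lat, chr1:190372137-190372386, - strand: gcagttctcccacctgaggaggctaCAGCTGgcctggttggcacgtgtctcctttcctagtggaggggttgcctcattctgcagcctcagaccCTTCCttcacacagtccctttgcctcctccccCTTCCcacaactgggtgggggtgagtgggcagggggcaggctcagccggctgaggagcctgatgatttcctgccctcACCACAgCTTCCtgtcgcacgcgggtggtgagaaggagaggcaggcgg
Ptprc, chr13:52259747-52259996, - strand: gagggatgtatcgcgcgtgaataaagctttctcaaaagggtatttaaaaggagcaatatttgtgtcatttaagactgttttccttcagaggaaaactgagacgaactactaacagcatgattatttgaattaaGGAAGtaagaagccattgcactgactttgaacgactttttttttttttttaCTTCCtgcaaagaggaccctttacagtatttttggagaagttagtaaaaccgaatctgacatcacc
Prkcq, chr17:72288509-72288758, - strand: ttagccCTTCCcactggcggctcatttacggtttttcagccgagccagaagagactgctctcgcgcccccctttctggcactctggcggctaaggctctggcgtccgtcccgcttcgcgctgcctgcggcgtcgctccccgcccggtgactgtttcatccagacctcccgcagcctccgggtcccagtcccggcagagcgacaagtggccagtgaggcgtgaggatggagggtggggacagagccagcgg

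These 4 stretches differed in base composition. G and C made up 52.4% of the Zap70 stretch, 63.2% in Lat, 36% in Ptprc and 66.8% in Prkcq, beside a median of 51.2% over all stretches and a range of 38% to 68.4% from the 10th to the 90th percentile. The ETS core stood in all of them, 2 times in Zap70, 3 in Lat, 2 in Ptprc and 1 in Prkcq. Of the 4, the Lat stretch held a RUNX core and an E-box as well. The GC box stood 1 time in Prkcq. Entries were found for 6 of the 9 genes, and of the pair not printed Fyn, which was also higher in group A, held no ETS core and 3 GC boxes, while Lck, with 2 start sites, held 5 and 2 ETS cores. A match is a string of letters and no measured binding site, and no binding was measured in these samples.

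In group A, fed through the mother's milk, the receptor genes moved in both directions against the reference. Zap70, Lat, Fyn, Grb2 and Bcl11b were higher, by 0.42 to 0.72 on the log2 scale on the brightest probe set of each, and Ptprc and Prkcq were lower. Lck and Lcp2 did not pass the test. With 1 probe set per gene, the one with the highest mean, 5 of 9 members were higher and 2 lower at an adjusted p under 0.05, in limma with Benjamini-Hochberg adjustment over all probe sets. Over all genes 16% were higher and 12% lower, 28% in either direction. The median difference of the 9 members was 0.42, against 0.15 for all genes. The members were chosen with earlier results known, so these shares and medians do not test them against all genes. Against groups B and C together, 5 members were higher and 3 lower, but there 31.6% of all genes were higher and 16.9% lower (48.4% in all), and the members' median of 0.29 lay beside 0.32 for all genes. As deposited, without normalization between arrays, 1 member was higher (Bcl11b) and 1 lower (Ptprc) than in group D, where 1.84% and 9.64% of all genes were. Against groups B and C 6 were then higher and 1 lower, where 40.6% and 7.05% of all genes were. Both comparisons use the same 3 arrays of group A.

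**Figure D1:**
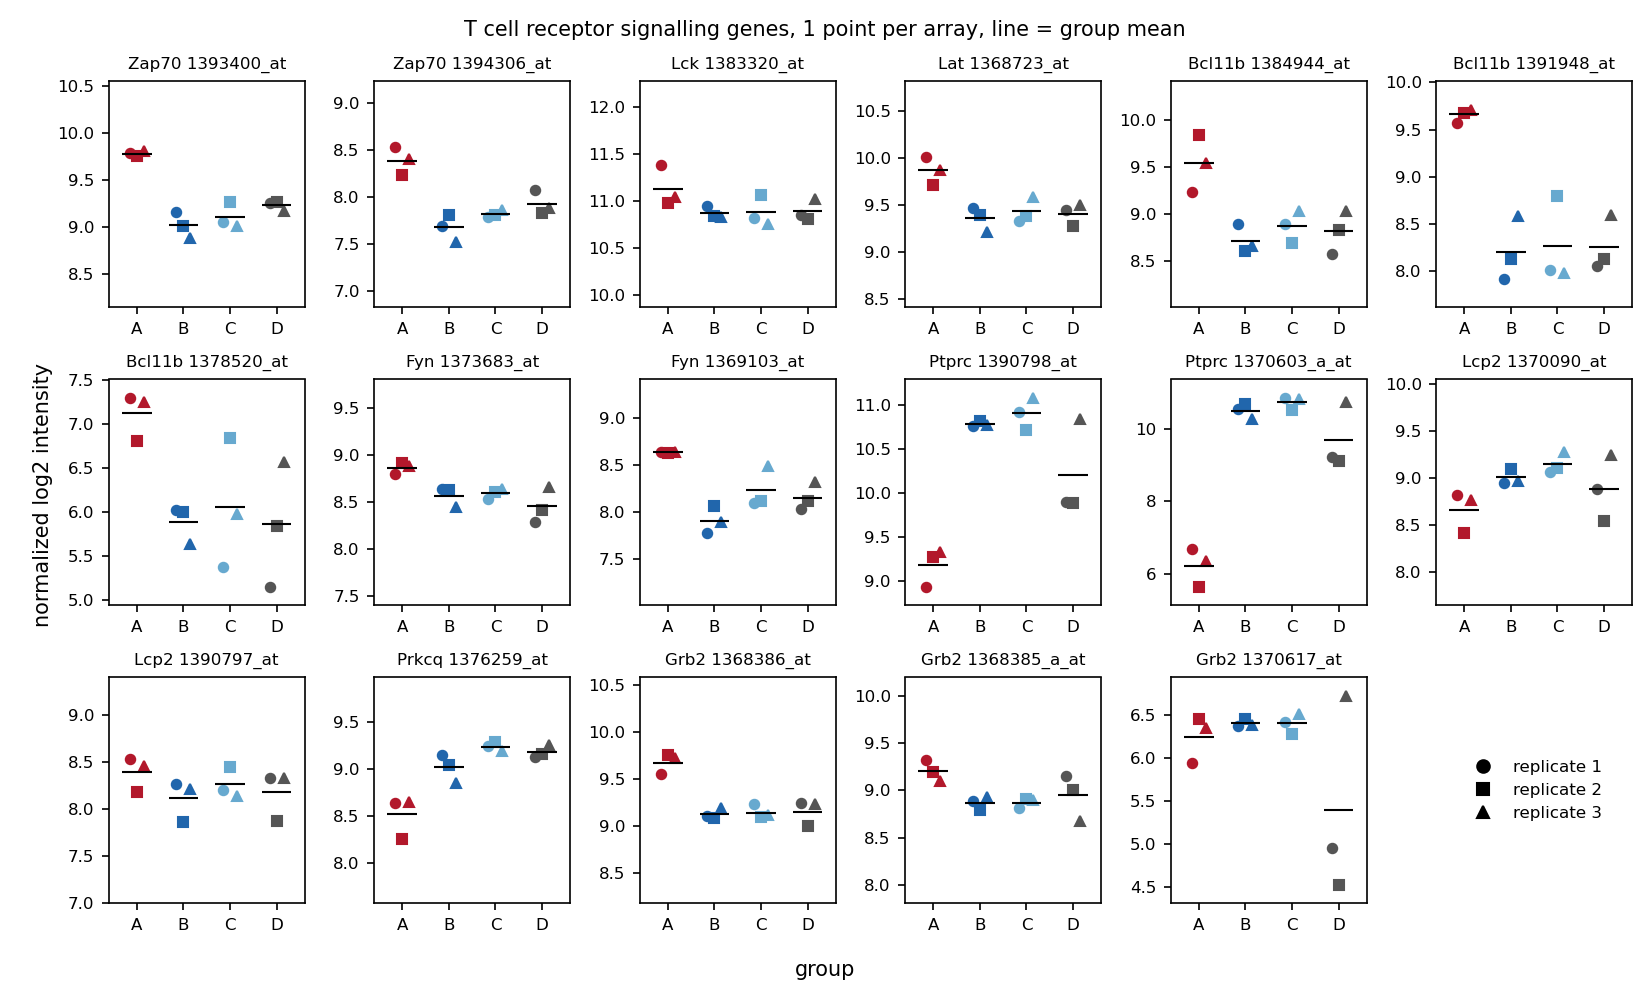
Normalized log2 intensity of each of the 17 probe sets of the 9 genes, with 1 point per array, the replicate shown by the symbol, groups A to D on the horizontal axis and a line at each group's mean; vertical scales differ between panels. The 3 group A arrays sit above all others for Zap70, Lat and Grb2 1368386_at and below all others for both Ptprc probe sets and Prkcq, and group D replicate 3 (grey triangle) leaves its group for Ptprc and Grb2 1370617_at.

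Zap70 is the kinase that binds the phosphorylated chains. On probe set 1393400_at its normalized log2 intensity was 9.79, 9.75 and 9.81 in group A and 9.25, 9.26 and 9.17 in group D. In group B it was 9.16, 9.01 and 8.88, and group C gave 9.05, 9.26 and 9.01. The group A arrays lay above every other array, and those of the other 3 groups ran from 8.88 to 9.26. Group A exceeded group D by 0.56 ± 0.10 (SE; 1.47-fold, limma adjusted p = 0.00231) and groups B and C by 0.72 ± 0.09 (adjusted p = 5.83e-05). The other probe set, 1394306_at, gave 0.46 (adjusted p = 0.0165) and 0.64 (adjusted p = 0.000382). Its call against group D was lost without group A replicate 1 (adjusted p = 0.0637), without group A replicate 3 (0.0522) and without group D replicate 2 (0.0571).

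Of the kinases that act before it, Lck did not pass and Fyn did. Lck read 11.38, 10.98 and 11.04 in group A, 10.95, 10.84 and 10.83 in B, 10.82, 11.06 and 10.76 in C, and 10.85, 10.81 and 11.02 in group D. Group A replicate 1 was the highest, replicate 3 lay just above the arrays of group D, and replicate 2 lay within their range. The difference from group D was 0.24 with a 95% interval of -0.03 to 0.51 (adjusted p = 0.214), and from groups B and C 0.26 (adjusted p = 0.0831). That last value passed at 0.57 with arrays centred on their 75th percentile (adjusted p = 0.00211) and at 0.98 as deposited (0.00447). It also passed with the dimmest probe sets left out (0.0387) and without group C replicate 2 (0.0465).

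Fyn, a kinase related to Lck that is also made outside T cells, was higher in group A on both probe sets. On 1373683_at it was 8.80, 8.92 and 8.89 in group A against 8.29, 8.42 and 8.66 in group D, while group B read 8.64, 8.63 and 8.45, and 8.54, 8.61 and 8.64 were found in group C. On 1369103_at the arrays of group A were 8.64, 8.62 and 8.63, and those of the other groups ran from 7.77 to 8.49. Group A lay above all other arrays on both. The difference from group D was 0.42 (adjusted p = 0.0192) on the first and 0.48 (adjusted p = 0.0221) on the second. These calls were close to the threshold. On 1373683_at the call was lost without group A replicate 2 (0.0695) or 3 (0.0575) and without group D replicate 1 (0.0666) or 2 (0.0551). On 1369103_at it was lost without any 1 array of group A (0.0575 to 0.0618) and without group D replicate 1 (0.0681) or 2 (0.0619).

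Ptprc, the gene of the surface phosphatase CD45 carried by white blood cells, had the largest differences of the 9. On 1370603_a_at it read 6.68, 5.64 and 6.34 in group A, 10.55, 10.70 and 10.28 in B, and 10.85, 10.53 and 10.83 in C. In group D it was 9.23 and 9.11 in replicates 1 and 2 and 10.74 in replicate 3. The highest array of group A lay below the lowest of the other groups, and group D replicate 3 lay at the level of the gavage groups. The difference of group A from group D was -3.47 ± 0.36 (11.1-fold lower, adjusted p = 5.21e-05), and from groups B and C -4.41 ± 0.31 (21.2-fold lower, adjusted p = 1.02e-06).

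The brighter Ptprc probe set, 1390798_at, moved the same way by less. It was 8.94, 9.28 and 9.33 in group A, 10.77, 10.82 and 10.78 in B, 10.93, 10.72 and 11.08 in C, and 9.90, 9.89 and 10.85 in group D. Group A fell by 1.03 against group D (adjusted p = 0.00486) and by 1.67 against groups B and C (adjusted p = 2.91e-05). Without group D replicate 3 the fall against group D was 0.71 on this probe set and 2.95 on 1370603_a_at, with adjusted p = 0.00203 and 8.64e-06. With only groups A and D in the fit, adjusted p was 0.0581 for 1390798_at. Which stretch of the transcript each probe set reports was not analysed here, and the unequal falls are given as measured.

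Among the scaffolds and adaptors, Lat and, on its brightest probe set, Grb2 were higher in group A and Lcp2 was not. Lat, the membrane scaffold that Zap70 phosphorylates, was 10.01, 9.72 and 9.88 in group A, 9.47, 9.40 and 9.22 in B, 9.33, 9.39 and 9.59 in C, and 9.45, 9.28 and 9.50 in group D. All 3 arrays of group A were above the rest. The difference from group D was 0.46 ± 0.12 (adjusted p = 0.0137), and from groups B and C 0.47 ± 0.10 (adjusted p = 0.00254). The first of these was lost without group A replicate 1 (adjusted p = 0.0542) and without group D replicate 2 (0.0537).

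Grb2, an adaptor of nearly all cells that links Lat to Ras, was measured by 3 probe sets that did not move alike. On 1368386_at it was 9.55, 9.75 and 9.72 in group A and at or below 9.24 on the other 9 arrays. Group A exceeded group D by 0.52 ± 0.10 (adjusted p = 0.00329) and groups B and C by 0.54 (adjusted p = 0.000403). On 1368385_a_at the differences were 0.26 (adjusted p = 0.167) and 0.33 (adjusted p = 0.0236). On the dim 1370617_at group D was split, with 4.96 and 4.53 in replicates 1 and 2 and 6.72 in replicate 3, while groups A, B and C ran from 5.94 to 6.52. There group A differed from group D by 0.85 (adjusted p = 0.182), and by 1.50 without group D replicate 3 (adjusted p = 0.000214). The study listed Grb2 as higher in all of its CLA groups on the arrays, but reported no change by real-time PCR.

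Lcp2 (SLP-76) joins Lat to the calcium arm. On 1370090_at it was 8.82, 8.41 and 8.76 in group A, 8.95, 9.09 and 8.97 in B, 9.06, 9.11 and 9.28 in C, and 8.88, 8.54 and 9.24 in group D. Groups A and D overlapped, with a difference of -0.22 and a 95% interval of -0.58 to 0.13 (adjusted p = 0.401). Against groups B and C group A fell by 0.41 (adjusted p = 0.0356), but as deposited the sign turned, to 0.20 (adjusted p = 0.515), and without group A replicate 2 the difference was -0.29 (adjusted p = 0.194). The other probe set, 1390797_at, differed by 0.20 in that comparison (adjusted p = 0.29).

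Prkcq, the kinase that carries the signal toward NF-kB, was lower in group A. It was 8.64, 8.26 and 8.65 there, 9.15, 9.05 and 8.85 in B, 9.25, 9.29 and 9.19 in C, and 9.13, 9.16 and 9.26 in group D. Every array of group A lay below every array of the other groups. The difference was -0.67 ± 0.12 from group D (adjusted p = 0.00207) and -0.61 ± 0.10 from groups B and C (adjusted p = 0.000554). As deposited the first was -0.73 (adjusted p = 0.097) and the second -0.00 (adjusted p = 0.993), where the median of all genes stood at 0.73.

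Bcl11b, the transcription factor, was higher in group A on all 3 probe sets, with the largest rises among the members. On 1391948_at it was 9.57, 9.68 and 9.71 in group A, 7.91, 8.12 and 8.58 in B, 8.01, 8.79 and 7.98 in C, and 8.05, 8.12 and 8.59 in group D. The 3 arrays of group A lay close together and above the others, which ran from 7.91 to 8.79. The rise was 1.40 ± 0.23 over group D (2.64-fold, adjusted p = 0.000972) and 1.42 ± 0.20 over groups B and C (adjusted p = 0.000123). On the brightest probe set, 1384944_at, the arrays of group A were 9.24, 9.84 and 9.54 and those of group D 8.58, 8.83 and 9.03, a difference of 0.72 (adjusted p = 0.00787). On the dim 1378520_at the difference was 1.26 (adjusted p = 0.0316), with arrays of group D as far apart as 5.15 and 6.57, and this call was lost without any 1 array of group A (adjusted p = 0.0515 to 0.0976) and without group D replicate 1 (0.109) or 2 (0.072).

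**Figure D2:**
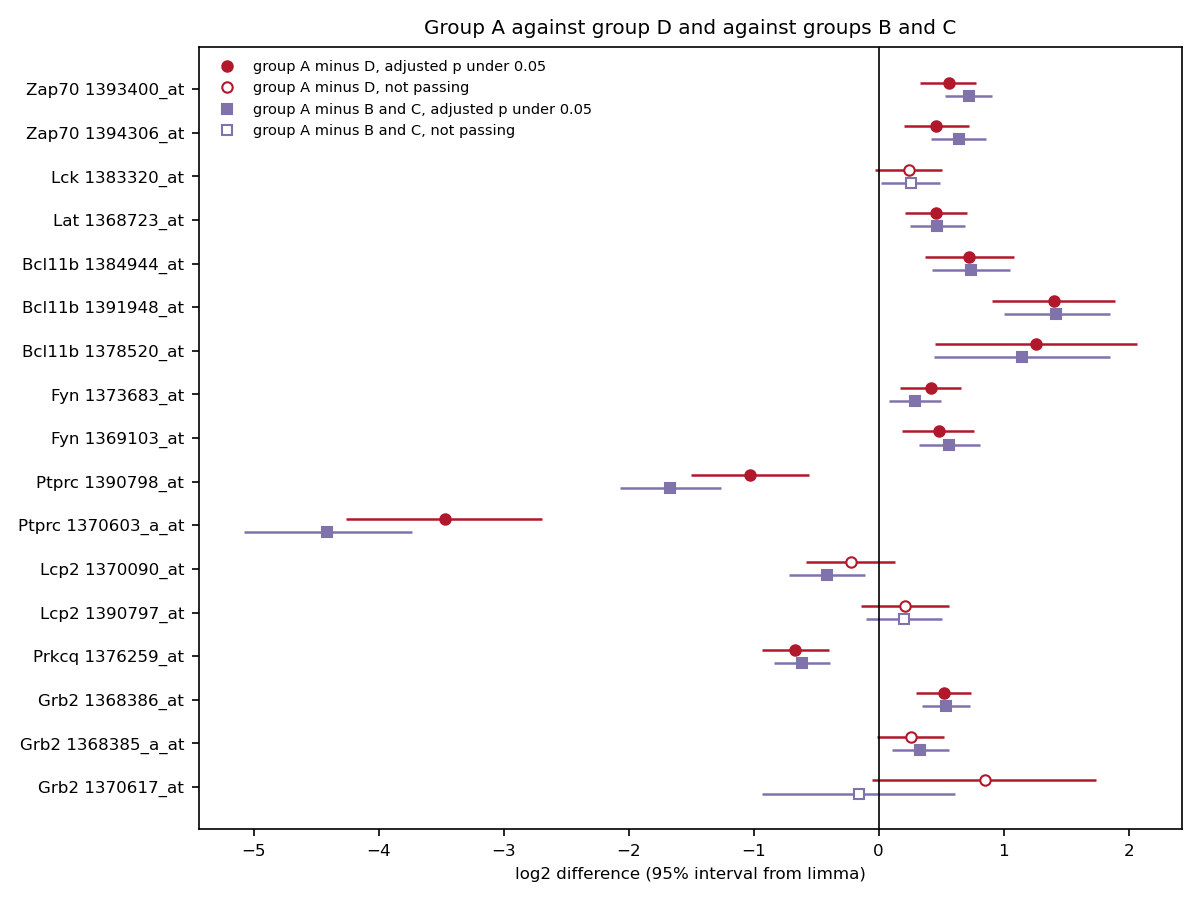
Log2 difference of group A from group D (circles) and from groups B and C together (squares) for each of the 17 probe sets, with 95% intervals from limma and filled symbols at an adjusted p under 0.05. Bcl11b, Zap70, Lat and Fyn lie to the right of 0 and Ptprc and Prkcq to the left, from 1.40 for Bcl11b 1391948_at to -3.47 for Ptprc 1370603_a_at against group D; as deposited, Lcp2 1370090_at turned to 0.20 against groups B and C.

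In groups B and C, which were given CLA by gavage, none of the 9 genes passed against the reference in the quantile-normalized values of all 12 arrays (limma), where 0.0211% of all genes passed in B and 0.0422% in C. The other probe sets of the members did not pass either, where 0.0161% and 0.0515% of all probe sets did. At an unadjusted p under 0.05 Ptprc passed in each, on the brightest probe set per gene, and the share of all genes was not counted there. As deposited, 3 members passed as lower in group C, where 35% of all genes were lower, and 0 passed in group B. They were Zap70 (-0.83, adjusted p = 0.0323), Lck (-0.80, 0.0488) and Grb2 on 1368386_at (-0.72, 0.0343). The intervals bound what was missed. For Zap70 on 1393400_at group B differed by -0.21 (95% interval -0.43 to 0.01) and group C by -0.12 (-0.34 to 0.10). For Lat it was -0.05 (-0.30 to 0.21) and 0.03 (-0.22 to 0.28), and for Bcl11b on 1384944_at -0.09 (-0.45 to 0.26) and 0.06 (-0.30 to 0.41).

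Ptprc depended on group D replicate 3. With all arrays 1390798_at differed by 0.57 in B (adjusted p = 0.242) and by 0.69 in C (adjusted p = 0.176), with the sign turned as deposited, at -0.16 and -0.10. Without that array it differed by 0.89 (adjusted p = 0.000584) and 1.01 (adjusted p = 0.000225), and 1370603_a_at by 1.34 (adjusted p = 0.00216) and 1.56 (adjusted p = 0.000717). In that fit Ptprc in group B, and Ptprc and Lcp2 (0.44, adjusted p = 0.0439) in group C, were the members that passed on the brightest probe set, all higher, where 7.15% and 8.04% of all genes were higher. Grb2 on 1370617_at then passed in both groups, at 1.66 in each. With group D replicates 1 and 2 alone, which carried the high smooth muscle markers, Ptprc in group D lay between group A and the gavage groups. The part of those markers in this order was not tested.

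Groups B and C, which differ in CLA in gestation, were also compared with each other. No member passed in limma, where 0% of all genes did, and on the brightest probe set per gene none passed at an unadjusted p under 0.05. The differences of group B from group C on those probe sets ran from -0.01 in Lck to -0.23 in Prkcq, with an interval for Prkcq of -0.49 to 0.04. On its other probe set, Fyn differed by -0.33 at an unadjusted p of 0.028 (adjusted p = 1).

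**Figure D3:**
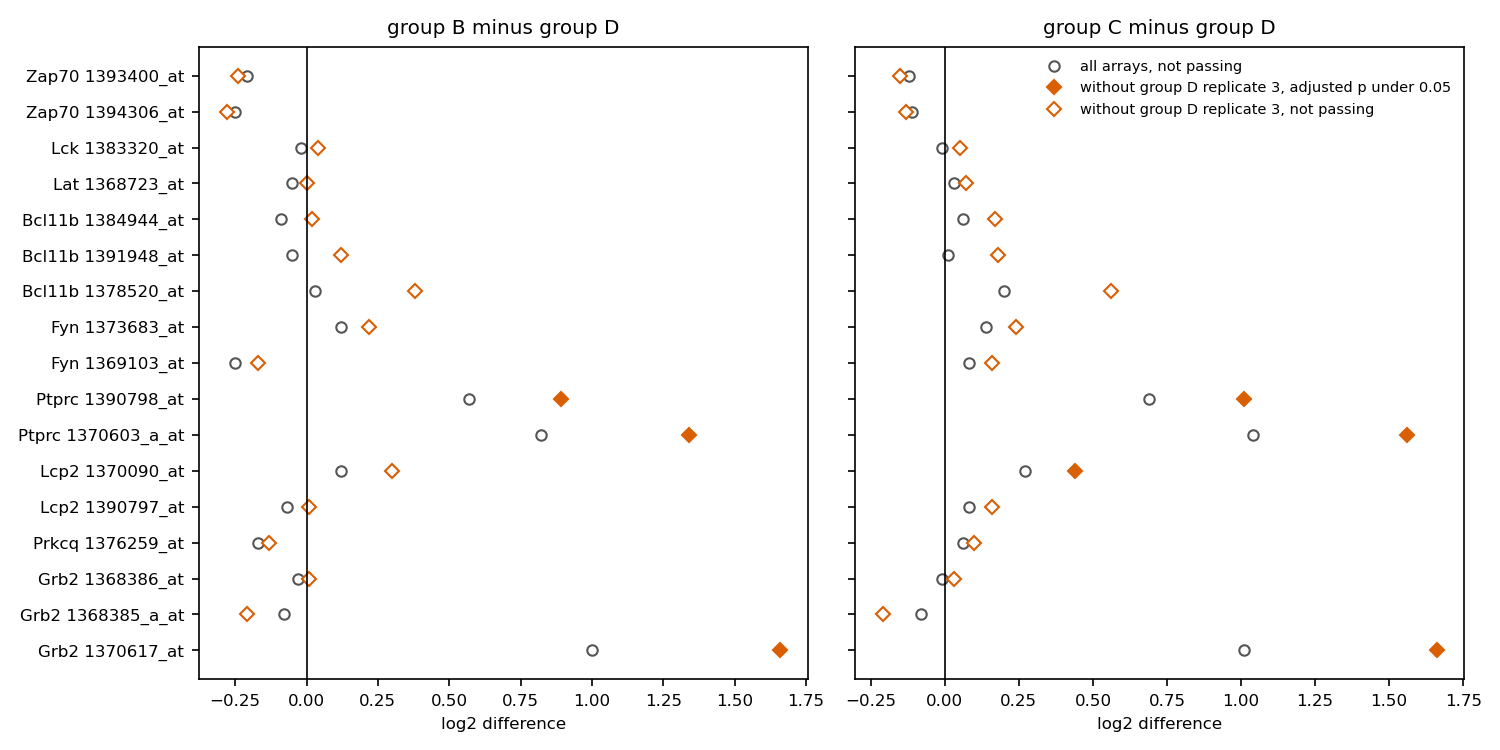
Log2 difference of groups B (left) and C (right) from group D for the 17 probe sets, with all arrays (grey circles) and without group D replicate 3 (orange diamonds, filled at an adjusted p under 0.05). No circle passes; without that array both Ptprc probe sets and Grb2 1370617_at pass in both groups, and Lcp2 1370090_at passes in group C, while as deposited Ptprc 1390798_at lies at -0.16 and -0.10.

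The rest of the pathway was read from a list of 86 measured genes, of which 24 were higher in group A than in group D, 13 lower and 49 neither. These shares stand beside the 16% higher and 12% lower of all genes. The median was 0.23, against 0.15 for all genes. This list too was chosen with earlier results known, so the shares and medians do not test it against all genes. The split changed with the scaling. As deposited 2 pathway genes were higher and 9 lower, where 1.84% and 9.64% of all genes were, and with centring on the 75th percentile 35 were higher and 12 lower, where 18% and 11.9% were. Each of the 37 genes kept its sign under both. Without group D replicate 3 the counts were 26 higher and 11 lower, where 14.6% and 13.4% of all genes were. Against groups B and C, 34 were higher, 23 lower and 29 neither, beside 31.6% and 16.9% of all genes. As deposited 46 were higher and 8 lower there, beside 40.6% and 7.05%, and 7 of the 57 genes that had passed turned in sign: Cd8a, Cbl, Dgka, Ppp3ca, Nras, Pdpk1 and Ets1.

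The CD3 chains of the receptor carry the signal into the cell, and none of them passed against group D. Cd3e, on its brightest probe set, was 10.77, 10.36 and 10.54 in group A and 10.38, 10.15 and 10.06 in group D. The difference was 0.36 (adjusted p = 0.0807), and against groups B and C it was 0.43 (adjusted p = 0.0114). The call against groups B and C was lost without group A replicate 1. The other Cd3e probe set showed no such rise, at 0.06 against groups B and C (adjusted p = 0.804). Against group D it gave 0.02 (adjusted p = 0.953). Cd3d differed from group D by 0.28 (adjusted p = 0.123), Cd3g by -0.16 (0.447) and Cd247, the zeta chain, by -0.11 (0.649).

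Of the coreceptors, which hold Lck, Cd8a was lower in group A. It was 8.74, 8.31 and 8.28 there and 9.24, 8.94 and 9.27 in group D, a fall of 0.71 (adjusted p = 0.0165) that was lost without group A replicate 2 or 3. Cd4 differed by -0.15 (adjusted p = 0.75) and Cd8b by -0.36 (adjusted p = 0.367). So 1 of the 7 measured genes of the receptor complex and coreceptors passed against group D, and the list's median was -0.15. Of all genes 16% were higher and 12% lower in this comparison.

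Costimulatory and inhibitory receptors set the strength of the response. Against group D 2 of 6 were higher and none lower, where 16% and 12% of all genes were. The 2 were Cd6, a surface receptor of T cells, by 0.73 (adjusted p = 0.0033), and Icos, a costimulatory receptor, by 0.60 (adjusted p = 0.0111). Cd28, the main costimulatory receptor, was lower than in groups B and C by 0.98 on the log2 scale (1.97-fold, adjusted p = 0.00665). As deposited that difference was -0.68 and did not pass (adjusted p = 0.0911). Against group D Cd28 differed by -0.83 and fell just short of the threshold (adjusted p = 0.0544). The Icos call was lost without group A replicate 3.

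Kinases and phosphatases next to the receptor were split, with 3 of 11 higher and 4 lower, or 3 and 3 without group D replicate 3. Of all genes 16% were higher and 12% lower, or 14.6% and 13.4% without that array. Csk, which holds Lck in its inactive form, rose by 0.73 (adjusted p = 0.00135), and Dgkz, which removes diacylglycerol, rose by 0.68 (adjusted p = 0.00178). Txk, a kinase of the Tec family, fell by 0.99 (adjusted p = 0.000427) and Ptpn2, a phosphatase, fell by 1.09 (adjusted p = 0.000359). Ptpn2 was 7.45, 7.50 and 7.70 in group A and ran from 8.37 to 9.12 elsewhere. Its group D replicate 3, at 9.04, again lay among the gavage groups.

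Adaptors and cytoskeletal genes gave 5 higher and 3 lower of 16, beside 16% and 12% of all genes. Sh2d2a, an adaptor that binds Lck, rose by 0.95 (adjusted p = 0.00403). Nck1, which ties the receptor to actin, was 7.30, 7.46 and 7.52 in group A and 8.57 to 9.21 on the other arrays, and fell by 1.34 against group D (adjusted p = 1.19e-05). Arhgap15, a regulator of the GTPase Rac, fell by 1.01 (adjusted p = 0.000183), and Fyb1, an adaptor that binds Lcp2, fell by 0.60 (adjusted p = 0.0315; lost without group A replicate 1 or 2).

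The calcium, Ras and NF-kB arms gave 8 higher and 3 lower of 24, beside 16% and 12% of all genes. Rasgrp1, the exchange factor that turns on Ras in T cells, was 4.64, 3.30 and 4.56 in group A and between 6.43 and 7.20 on all other arrays, and fell by 2.60 against group D (6.07-fold, adjusted p = 0.000129). Pik3r1, a regulatory subunit of PI3 kinase, fell by 1.95 (adjusted p = 0.00239), and Itpr1, a calcium channel of the endoplasmic reticulum, by 1.04 (adjusted p = 4.56e-05). Stim1, the calcium sensor of that store, was 8.91, 8.99 and 8.88 in group A and 7.77 to 8.07 elsewhere, and rose by 0.96 (adjusted p = 8.12e-05).

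Of the T cell transcription factors 2 of 9 were higher and none lower, and 4 were higher without group D replicate 3. Of all genes 16% were higher and 12% lower, or 14.6% and 13.4% without that array. Gata3, a factor of T helper cells, rose by 1.00 (adjusted p = 0.000748) and Lef1 by 0.41 (adjusted p = 0.0305). The Lef1 call was lost without group A replicate 2 or 3 and without group D replicate 1 or 2. Of the genes that receptor signalling induces, 4 of 13 were higher and 2 lower, beside the same shares of all genes. Their median was 0.36. Without group D replicate 3 they were 4 and 1, with a median of -0.09. Egr1 and Nr4a1, both early response genes, rose by 0.78 (adjusted p = 0.00066) and 0.81 (adjusted p = 0.00514). Cd69, an early activation marker, was 6.51, 6.54 and 6.68 in group A and fell by 1.89 (adjusted p = 6.25e-05), with 8.23, 8.07 and 9.09 in group D. Cd40lg, a ligand for B cells, fell by 0.93 (adjusted p = 0.0303; lost without group A replicate 2 and without group D replicate 2 or 3).

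**Figure D4:**
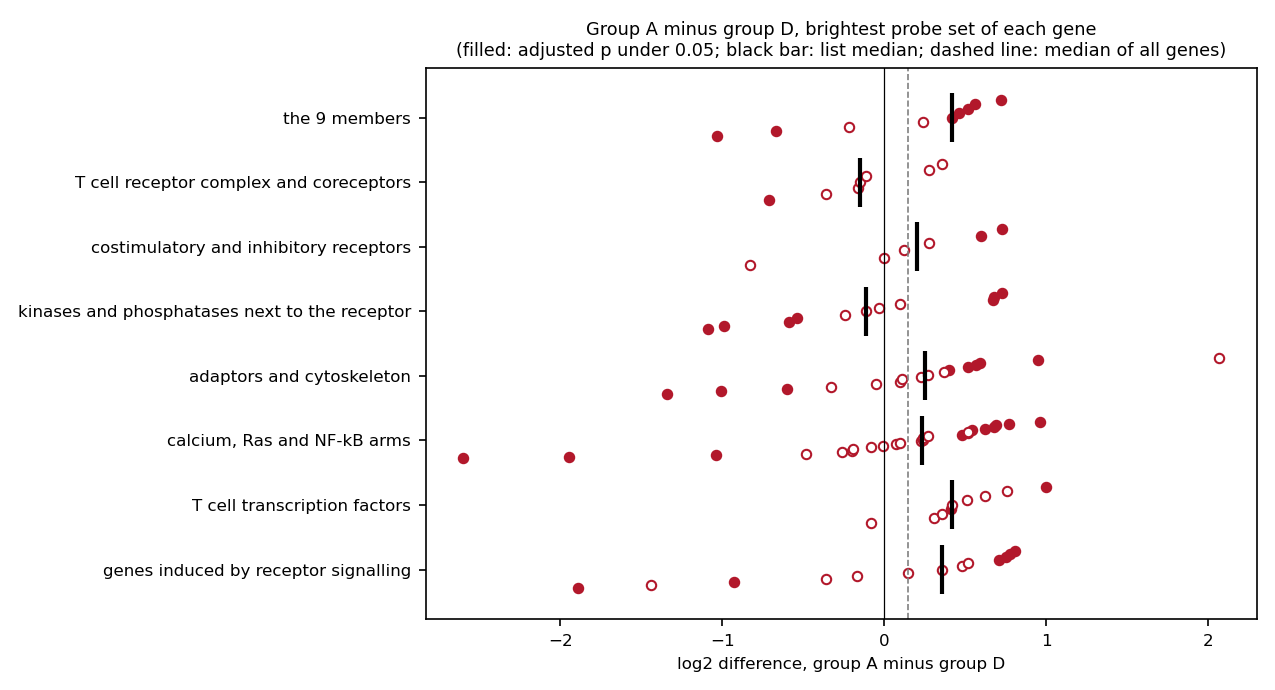
Log2 difference of group A from group D for the brightest probe set of each gene, by role in the pathway, with filled points at an adjusted p under 0.05, a black bar at each list's median and a dashed line at the median of all genes, 0.15. Every role holds points on both sides of 0, the lowest being Rasgrp1 at -2.60; none of the 37 filled pathway genes changed sign under the other scalings.

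In groups B and C none of the 86 pathway genes passed against group D in limma. At an unadjusted p under 0.05, group B had 12 higher and 5 lower, and group C had 14 higher and 6 lower. The share of all genes at an unadjusted p was not counted, so these counts are not read as a pathway result. Without group D replicate 3, group B had 15 higher and 3 lower and group C had 19 higher and 5 lower, at an adjusted p under 0.05. Of all genes 7.15% were then higher and 12.8% lower in B, and 8.04% and 15% in C. As deposited, with all arrays, 25 pathway genes were lower in group C and none higher, where 35% of all genes were lower, and none passed in group B.

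The members fell into 2 sets by how they varied over the 12 arrays, given here as Pearson's r on the brightest probe sets. Zap70 had r of 0.86 with Grb2, 0.85 with Lat and 0.79 with Bcl11b, and Bcl11b had 0.87 with Grb2. Ptprc had r of 0.79 with Lcp2 and 0.77 with Prkcq, and -0.92 with Zap70. The arrays share their group means, so these values carry the group differences above and are no measure within a group.

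Over 13946 probe sets above background on all arrays, the genes most like Zap70 were Sytl1 (r = 0.987), Extl3 (0.985) and Arf5 (0.978). Those most like Ptprc were Hnrnpa3 (0.996), Thoc1 (0.996) and Rbm39 (0.995). Prkcq varied most like Gimap4 (0.971), Rab27a (0.97) and Becn1 (0.963). For Lat they were Mknk1 (0.961), Fbxo7 (0.954) and Hgsnat (0.943), and for Grb2 Jak3 (0.973), Sqstm1 (0.972) and Capn10 (0.971). Bcl11b was nearest to Srrm1 (0.974), Zfta (0.937) and Pitpnm1 (0.933), and Fyn to Otud5 (0.97), Pik3cd (0.957) and Zbtb7a (0.957). The nearest genes to Lcp2 were Cytip (0.934), Acin1 (0.929) and Casp2 (0.922), and to Lck Sash3 (0.913), Cables2 (0.908) and Septin1 (0.898), the lowest of the 9 in the first place.

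Markers of the cells that a lymph node holds were set beside these results, as sums of linear intensities over each list. Against group D, 16% of all genes were higher in group A and 12% lower, or 14.6% and 13.4% without group D replicate 3. The T cell list (8 of 8 measured) summed to 6179 to 7586 in group A and 5751 to 6508 in group D, which overlap, with 1 gene higher and none lower at an adjusted p under 0.05. The B cell list (7 of 10) gave 2815 to 3787 in group D, 3341 to 3857 with milk CLA in group A, and 4041 to 4638 over the 6 gavage arrays. Of its genes 3 were higher in group A than in group D (Blk by 1.02, Cd37 by 0.89 and Fcer2 by 0.78) and 1 lower (Ms4a1, -0.34), the last not without group D replicate 3. The neutrophil list (6 of 7) gave 157 to 198 in group D and 406 to 578 in group A, where 3 of its genes passed as higher, and the plasma cell list (7 of 7) gave 1710 to 2460 and 2975 to 3246, with 4 higher, or 3 higher and 1 lower without group D replicate 3.

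Both of these lists lay higher in group A, and the smooth muscle list (6 of 6) was at 1517 to 1664 there, 761 to 1175 over the gavage arrays, and 957 to 6927 in group D. Of the smooth muscle genes 3 were lower in group A than in group D and none higher, or 6 lower without group D replicate 3. The cell proliferation list (6 of 6) gave 1500 to 1714 in group A, 2003 to 2482 over the gavage arrays and 1968 to 2601 in group D. In group A 3 of its genes were lower than in group D and 1 higher, or 4 lower and none higher without group D replicate 3. The gut epithelium list (5 of 5) gave 60 to 109 in group A, 38 to 70 over the gavage arrays and 110 to 327 in group D, with 2 lower in group A, and none without group D replicate 3. The erythroid list (3 of 4) gave 89 to 152 in group A and 44 to 78 in group D, with 1 higher. The sums of the NK cell, macrophage and dendritic cell, mast cell, adipocyte and endothelium lists overlapped between groups A and D. Against group D the NK cell list gave 1 of 7 higher and 1 lower, and endothelium 2 of 5 lower. The macrophage and dendritic cell list gave 3 of 10 higher and 1 lower, or 1 and 1 without group D replicate 3. Mast cell genes gave 1 of 5 higher, and none without that array. Adipocyte genes gave 2 of 6 lower, or 1 without it. Of all genes 16% were higher and 12% lower, or 14.6% and 13.4% without it. No marker of these lists lay within background on all arrays. Some passed background on few arrays, among them Camp and Fabp2 on 1, Lep on 2, and Vil1 and Ahsp on 5. The ratio of 3' to 5' signal of hexokinase, a sign of RNA length, was 2.84 to 4.96 in group A, 1.62 to 3.24 over the gavage arrays and 1.84 to 2.53 in group D, and that of Gapdh 1.21 to 1.53, 1.10 to 1.28 and 1.06 to 1.22 in the same order. That of actin overlapped throughout, at 1.37 to 1.79 in group A, 1.44 to 1.79 over the gavage arrays and 1.30 to 1.91 in group D. The part of the marker levels and of these ratios in the differences of the 9 genes was not tested.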

How the data were processed

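Total RNA of mesenteric lymph nodes was hybridized to Affymetrix Rat Genome 230 2.0 arrays, 3 animals in each of 4 groups. Per the submitters' processing notes MAS5 was used by the authors; the deposited unit is a linear intensity per probe set, with no scaling between arrays. The 30 zeros of the file took its smallest positive value. Log2 intensities were quantile normalized over 12 arrays and raised to a floor of 1 in linear intensity. Of 31099 probe sets 57 controls were left out. Symbols came from the platform annotation, updated against GRCr8, with 1 symbol for 20826 probe sets, several for 436 and none for 9780.

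The test was limma 3.58.1 in R 4.3.3, two-sided, with 1 mean per group, all 12 arrays, a trend of the variance, and Benjamini-Hochberg adjustment over 31042 probe sets in each comparison. A gene was counted by its brightest probe set at an adjusted p under 0.05. Background was the 95th percentile of 27 spike probe sets. The number of arrays limits the precision, and 3 against 3 cannot go below an exact permutation p of 0.1. The fits were tested on simulated data.

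Named genes were all probe sets of the 9 members, the receptor complex, up to 4 passing genes with the largest difference in each other list and comparison, of which the text gives a part, and the 3 nearest genes by Pearson's r. The members, lists and quantile normalization were chosen with earlier results of these data known. The alternatives were values as deposited, centring at the 75th percentile, a floor raised to 32, a filter on the dimmest 40%, no trend, only the groups compared, a replicate block, unadjusted p, any probe set of the gene, and each array left out. Leaving out group D replicate 3 before normalization was added after seeing the data.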

Additional observations from a re-analysis of the deposited data

How the results depend on the processing

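With 3 animals a group, and no litters given, small differences could not be detected. The 7 members that passed between groups A and D became 2 as deposited and 3 with only those groups in the fit, and the 37 pathway genes became 11 as deposited. The 0 members in group B became 1, and the 0 in group C became 2, with group D replicate 3 left out before normalization, and 1 in each at an unadjusted p. As deposited 3 members passed in group C. For the pathway the 0 genes of group B became 18 and the 0 of group C became 24 without that array, 17 and 20 unadjusted, and 25 in group C as deposited. Between groups B and C 5 pathway genes passed unadjusted against 0. Shares of all genes were not counted at an unadjusted p or with only groups A and D in the fit. Leaving out 1 array gave 5 to 7 members for A against D, 6 to 8 for A against B and C, 0 to 1 for B, 0 to 2 for C and 0 to 0 for B against C. The pathway counts were 26 to 37 (lowest without group A replicate 2), 48 to 60, 0 to 18, 0 to 24 and 0 to 0. Among these fits, shares of all genes were counted only without group D replicate 3.

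Of the members' values past the threshold in either fit, the sign turned as deposited for Lcp2 1370090_at, to 0.20 against groups B and C, and for Bcl11b 1391948_at, to -0.66 in group C. Values past it in neither fit turned too, among them Ptprc 1390798_at, to -0.16 in B and -0.10 in C. The causes were not tested. Over all settings and the 17 probe sets, 298 of 340 values of group A against group D kept their direction and side of the threshold.

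Same-numbered animals shared only a number. Over 18 pairs the correlation of their deviations ran from -0.0715 to 0.359 (median 0.0191), with 5 over 0.1. The replicate block left the members at 7 in group A against group D and 8 against groups B and C, the pathway at 38 and 57, and all other counts at 0.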
